A study of Homo sapiens with 8 samples.

Results

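The genes described here are 49 genes of the PI3K, AKT, mTOR and FOXO pathway, chosen by name for their roles: the enzymes that make and remove the lipid signal, the kinases that read it, the switch and complexes of mTOR, the FOXO transcription factors, the insulin and IGF receptors with their adaptors and binding proteins, and 6 transcripts linked to FOXO. All 49 had a probe on the array, and 42 were measured, which here means that a probe was flagged as well above background on every array of either condition. The same criterion left 15454 genes in all, of which 11994 were named through RefSeq. The others matched no RefSeq symbol and are transcripts under the array's own name. They count as genes in every share over all genes below. RNA came from OAW42-R, a cisplatin-resistant derivative of the serous ovarian carcinoma line OAW42, and was read on 8 one-colour Agilent arrays. Cells had been transfected with a Lincode non-targeting siRNA pool (sictrl, 4 arrays) or with a mix of the Lincode siRNAs no. 2 and 4 against the long noncoding RNA UCA1 (siUCA1, 4 arrays), each at 20 nM, in 4 independent experiments by the methods of the paper. The labels name the 4 arrays of each condition A1, M2, A2 and A3, and do not say that a name marks a shared experiment. RNA was extracted 24 h after transfection by the labels. The methods of the paper name a longer time. Both conditions were grown with 10% fetal calf serum and 20 UI/l of recombinant human insulin, so that a ligand of this pathway was present in each. The model is 1 cell line, and 1 siRNA mix stands for the loss of UCA1.

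Insulin and IGF receptors recruit class I PI3K through IRS adaptors, and the lipid that PI3K makes brings PDK1 and AKT to the membrane. Active AKT phosphorylates FOXO factors, which then leave the nucleus, and TSC2, which releases RHEB to switch on mTOR complex 1. When AKT is inactive, FOXO factors enter the nucleus and transcribe genes of growth arrest and cell death, among them those of BIM and PUMA, and also genes of the insulin receptor and its adaptors. Arrays read only transcripts, and none of the phosphorylation steps of this pathway.

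In siUCA1, 9 of the 42 measured genes rose and 2 fell at an adjusted p under 0.05. The rises were led by the regulatory PI3K subunit PIK3R1 and the insulin receptor INSR, by 1.81-fold and 1.82-fold, and by the pseudokinase TRIB2, by 1.70-fold. The other regulatory subunit gene PIK3R2 was 1.73-fold lower, and the FOXO target CCNG2 was 1.87-fold lower. Among the AKT kinases, the catalytic subunits PIK3CA and PIK3CB, the mTOR kinase and its substrates, no gene passed the test. The members called were 26.2% of those measured, against 11.6% of all 15454 genes, 5.72% called higher and 5.85% called lower. The pathway genes were chosen with earlier results of these data known, and these shares were not tested against each other. The median log2 fold change was 0.20 over the 42 genes and 0.03 over all genes, and 27 of the 42 differences were above 0, against 54.2% of all genes. Bulk RNA cannot tell fewer cells with a transcript from less of it per cell.

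A log2 value here is the log2 of the background-subtracted intensity minus the 75th percentile of the array, and differences are siUCA1 minus sictrl. Each gene is read by the brightest of its probes that met the criterion. The test of siUCA1 against sictrl is limma's moderated test, and p-values were adjusted over all genes by Benjamini-Hochberg. The 4 arrays of sictrl and the 4 of siUCA1 did not overlap for 16 of the 42 genes (38.1%), against 20.8% of all genes. For a single gene with no overlap, the two-sided exact permutation test over 4 arrays against 4 gives p = 0.0286, the smallest that it can give.

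UCA1 itself checked the labels. It lay between 7.48 and 8.60 on the sictrl arrays and between 2.59 and 3.68 on the siUCA1 arrays, and it fell by 5.04 (adjusted p = 0.000122). Between 20858 and 24039 spots per array were well above background, and the arrays lay on 1 slide. Before depositing, Feature Extraction had removed a trend in brightness over each array's surface. The root mean square of that trend was 0.321 on the sictrl array of A3 and 0.287 on the siUCA1 array of A1, against 0.0737 to 0.0943 on the other 6. The sictrl array of A3 was the farthest from its group's other arrays for 28 of the 42 genes (66.7%, against 54.0% of all genes), and the siUCA1 array of A1 for 18 (42.9%, against 48.1%). Without these 2 arrays, 21 of 43 pathway genes and 3878 of 15990 genes in all (24.3%) passed the test, and the 11 genes called with all arrays were among the 21. The 10 added were AKT1, AKT1S1, EIF4EBP1, IGF1R, PDPK1, PHLPP2, RHEB, SGK3, TSC2 and TXNIP. With the remaining surface trend removed and all arrays kept, 15 of the 42 and 16.2% of all genes passed, and the 4 added were AKT1S1, EIF4EBP1, RHEB and SGK3. Of the ovarian and epithelial markers, PAX8, EPCAM, CDH1 and 4 keratins were detected, and WT1 and MUC16 were below that criterion everywhere. CDH1 was lower in siUCA1 (adjusted p = 0.0149). Of immune markers only CD14 was detected, higher in siUCA1 (adjusted p = 0.0478), and of endothelial markers only VWF. PTPRC, CD3E, PECAM1, CDH5 and the fibroblast markers had no kept probe.

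**Figure D1:**
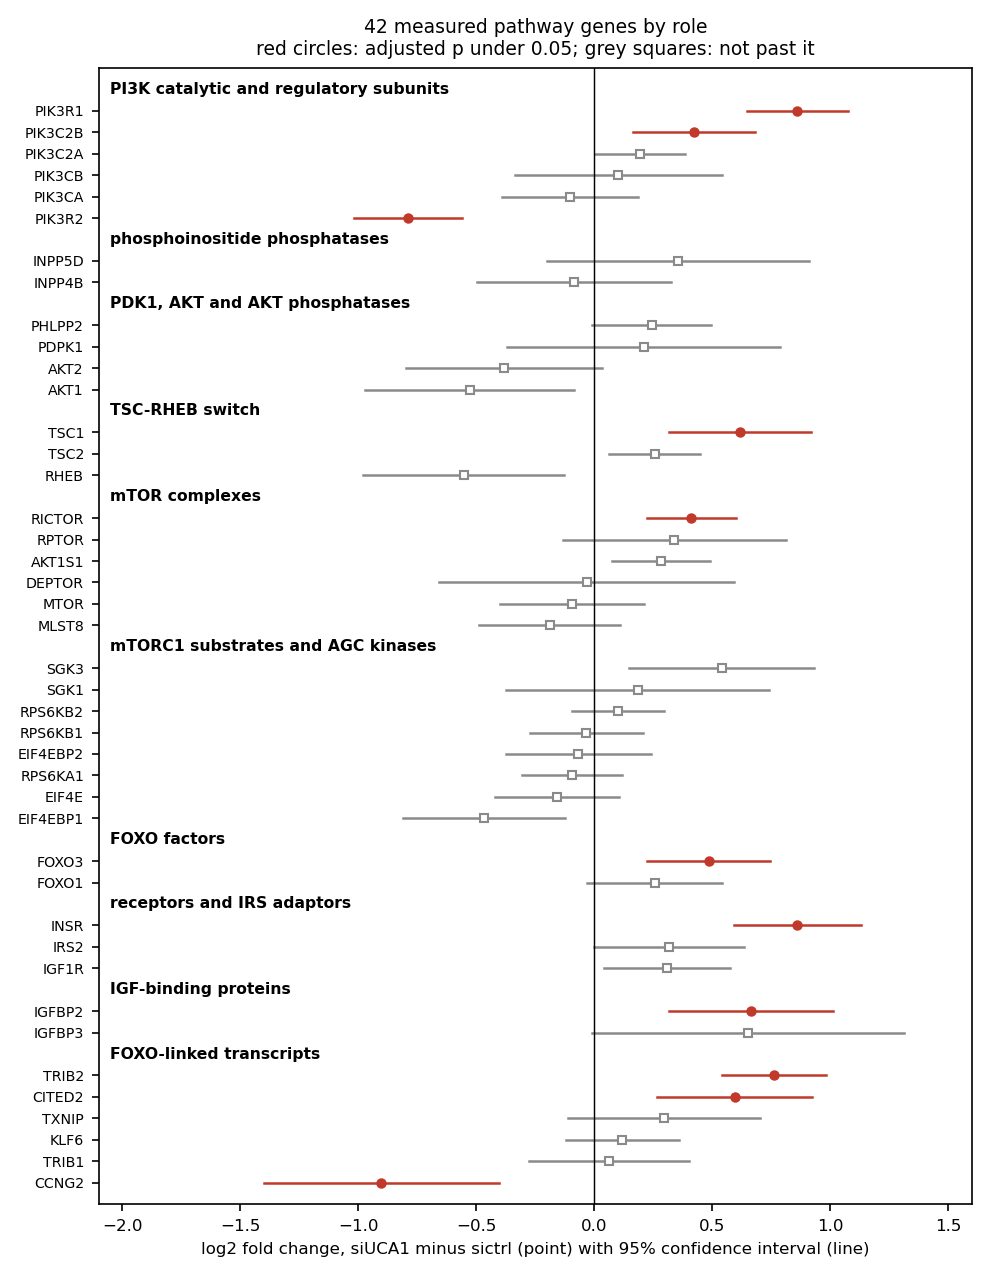
Log2 fold change (siUCA1 minus sictrl, horizontal axis) of the 42 measured genes in 10 role groups, each point with its 95% confidence interval from limma over 4 arrays per condition. Red circles are the 11 genes with an adjusted p under 0.05, and grey squares the other 31. PIK3R1 and PIK3R2 lie at the opposite ends of the first group.

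The short sequences shown here are places before the start of 4 measured genes that hold a core read by forkhead factors, since FOXO factors are the transcriptional output of the pathway. Of the 49 genes, 43 were matched to the promoter table of RefSeq (build GRCh38.p14), which gives 250 bases before and 50 after each gene's start. The letters GTAAACA, or TGTTTAC on the other strand, were present in 5 of the 43 promoters (11.6%) and in 3.42% of all 35116 promoters. The related core CAAAACA, or TGTTTTG, was present in 3 of the 43 (6.98%) and in 4.92% of all. The cores differ only in their first 2 letters. Both strands were searched, and a match describes letters and not a site in use. The windows below are written 5′ to 3′ on the gene's strand, with the core in capitals.
TRIB2, chr2:12716686-12716714, plus strand: tTGTTTACctccccggccgggcgagggag
TXNIP, chr1:145996686-145996714, minus strand: tcgggctcctgGTAAACAaggaccgggca
IRS2, chr13:109786606-109786634, minus strand: gagtcacatgtTGTTTTGctcttcttagt
RPS6KB1, chr17:59892968-59892996, plus strand: acttcggctggTGTTTTGcgcatgtttct
PIK3CA also held TGTTTAC, but the 2 RefSeq tables used place its start differently, and its window is not shown. The cores shown began 249 bases before the gene start in TRIB2, 124 in TXNIP, 40 in IRS2 and 142 in RPS6KB1. Of these 4 genes only TRIB2 was among the 11 that passed the test. The windows of the other 10 that passed, FOXO3, INSR and PIK3R1 among them, held neither core. TSC1 was also among these 10, and the 2 RefSeq tables place its start differently too. Promoters of the 43 genes had a median GC content of 68.0%, against 58.7% over all promoters.

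Receptors and IRS adaptors carry the signal of insulin and the IGFs into the cell. INSR, which encodes the insulin receptor (gene ID 3643, chr19:7112265-7294414 in GRCh38.p14), had log2 values of 0.91, 1.03, 0.98 and 1.34 in sictrl, in the order A1, M2, A2, A3 that is kept below. In siUCA1 its values were 1.98, 1.80, 2.04 and 1.88. Every siUCA1 array lay above every sictrl array, and INSR rose by 0.86 (standard error 0.12, adjusted p = 0.00435). IGF1R, the receptor for IGF1 and IGF2, stood at -0.29 ± 0.19 (SD, n = 4) in sictrl and 0.02 ± 0.10 in siUCA1, a difference of 0.31 that did not pass the test (adjusted p = 0.128). IRS2, an adaptor that links both receptors to PI3K, differed by 0.32 (adjusted p = 0.184), with overlapping arrays. IRS1, the sister adaptor, was well above background on at most 3 of the 8 arrays and was not tested. All 3 differences of the group were above 0, with a median of 0.32.

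IGF-binding proteins are secreted and hold IGFs outside the cell. IGFBP2 had values of 3.90, 3.70, 3.91 and 4.34 in sictrl and of 4.55, 4.43, 4.67 and 4.84 in siUCA1. The lowest siUCA1 array lay just above the highest sictrl array, that of A3, and IGFBP2 rose by 0.66 (standard error 0.15, adjusted p = 0.0274). IGFBP3, the main carrier of IGFs in blood, had values of 3.20, 2.45, 2.45 and 3.27 in sictrl and 3.90, 3.09, 3.03 and 3.96 in siUCA1. Its difference was 0.65, with an SD of 0.46 in sictrl and 0.50 in siUCA1, and it did not pass the test (adjusted p = 0.186). In a fit with the array name as a block, IGFBP3 passed (adjusted p = 0.0164), while CCNG2, FOXO3 and PIK3C2B no longer did. IGFBP4 and IGFBP6 were not well above background anywhere.

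PI3K subunits gave the opposed pair. Class IA PI3K is a dimer of a catalytic subunit and a regulatory p85 subunit, which stabilises the catalytic one and binds phosphorylated receptors and adaptors. PIK3R1, the gene of p85-alpha (gene ID 5295, chr5:68215756-68301821), had log2 values of 3.22, 3.44, 3.37 and 3.30 in sictrl and 4.07, 4.28, 4.24 and 4.17 in siUCA1. The conditions were far apart against a spread of 0.09 (SD, n = 4) in each, and PIK3R1 rose by 0.86 (standard error 0.09, adjusted p = 0.00200). PIK3R2, the gene of p85-beta (gene ID 5296, chr19:18153163-18170532), had values of 5.56, 5.68, 5.59 and 5.73 in sictrl. In siUCA1 it had 5.01, 4.68, 4.82 and 4.90, below every sictrl array, and it fell by 0.79 (standard error 0.10, adjusted p = 0.00348). PIK3R3, of p55-gamma, was not well above background on any array.

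The catalytic partners did not move in this way. PIK3CA, of p110-alpha, stood at -0.18 ± 0.22 (SD, n = 4) in sictrl and -0.28 ± 0.12 in siUCA1, a difference of -0.10 with a 95% confidence interval from -0.39 to 0.19. PIK3CB, of p110-beta, differed by 0.10, with an interval from -0.34 to 0.54. PIK3CD, of the p110-delta form known from leukocytes, was above background on at most 3 arrays. The class II enzymes act on other lipids and without p85. PIK3C2B had values of 2.17, 2.27, 2.36 and 2.37 in sictrl and 2.98, 2.62, 2.56 and 2.70 in siUCA1, and rose by 0.42 (standard error 0.11, adjusted p = 0.0461). PIK3C2A was higher on every siUCA1 array, by 0.19, without passing the test (adjusted p = 0.175). In this role group 3 of 6 measured genes were called, 2 higher and 1 lower, with a median difference of 0.15, against 11.6% of all genes called.

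**Figure D2:**
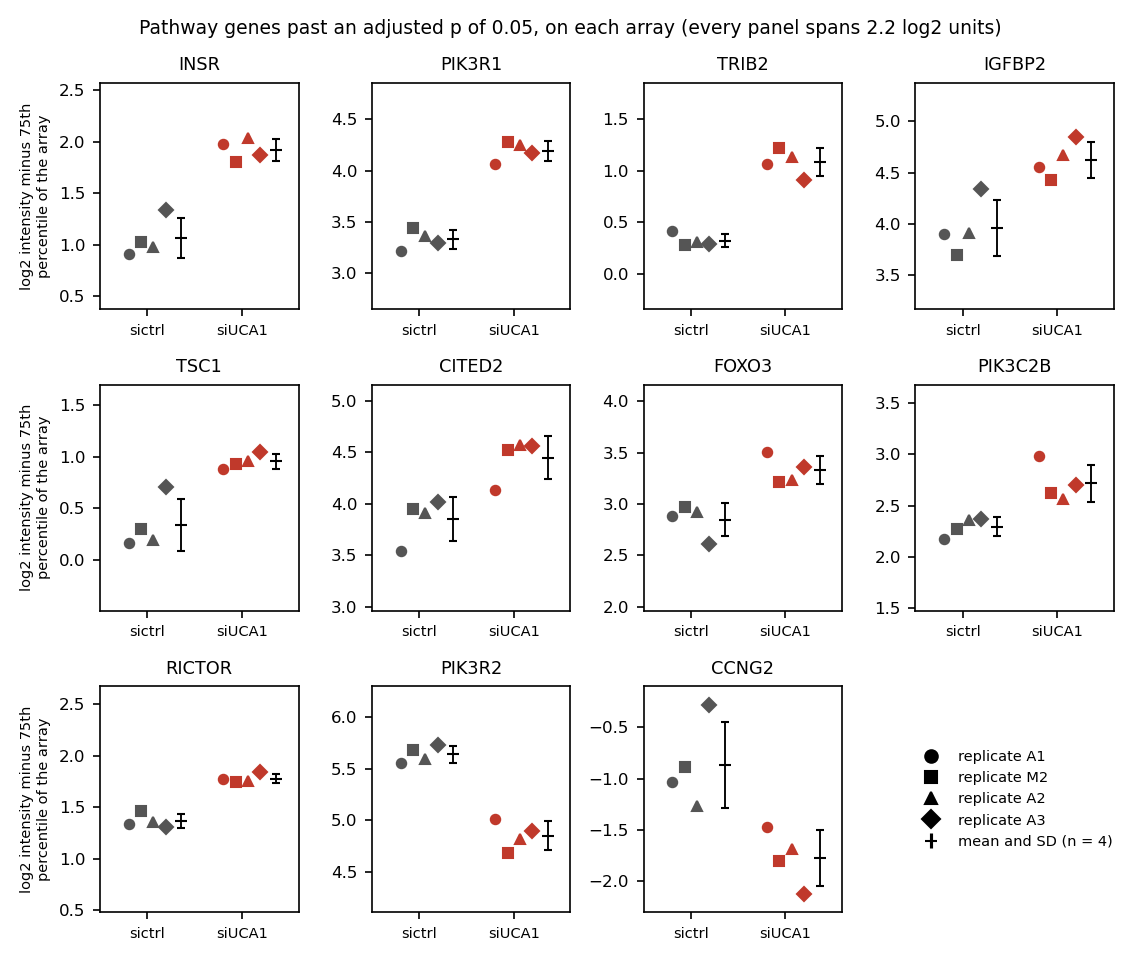
Log2 value relative to the array's 75th percentile (vertical axis) of the 11 genes that passed the test, on each of the 4 sictrl (grey) and 4 siUCA1 (red) arrays, with symbols for the replicate names and bars for the mean and SD. The conditions do not overlap in any of the 11 panels, and the gap is narrowest for IGFBP2 and CITED2.

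The lipid phosphatases among the 49 genes, INPP4B and INPP5D, remove phosphates from PI3K's products. INPP4B differed by -0.09 (interval -0.50 to 0.32), and INPP5D, known as SHIP1 from blood cells, by 0.35 (interval -0.20 to 0.91). Neither passed the test, and their arrays overlapped.

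PDK1 and AKT are the kinases that read the lipid signal. AKT1 had values of 3.25, 3.16, 3.39 and 3.93 in sictrl and 3.30, 2.78, 2.74 and 2.81 in siUCA1, a difference of -0.53 (standard error 0.20, adjusted p = 0.119). Its highest sictrl value and its highest siUCA1 value were on the 2 arrays with the strong surface trend. Without those arrays the difference was -0.49 and passed the test (adjusted p = 0.0114), and with the remaining surface trend removed and all arrays kept it was -0.51 and did not (adjusted p = 0.286). AKT2 was lower on every siUCA1 array, at 3.50 ± 0.08 (SD, n = 4) against 3.88 ± 0.40, a difference of -0.38 that did not pass (adjusted p = 0.217). It was -0.15 without both of those arrays (adjusted p = 0.222) and -0.19 without the sictrl array of A3 alone. PDPK1, which encodes PDK1, the kinase that activates AKT, lay between 0.86 and 1.16 in sictrl. In siUCA1 it stood at 1.34, 1.42 and 1.66 in M2, A2 and A3 but at 0.37 in A1, and its difference of 0.21 did not pass the test (adjusted p = 0.647). Without the 2 arrays it was 0.45 (adjusted p = 0.0399), and with the trend removed 0.22 (adjusted p = 0.645). PHLPP2, a phosphatase that inactivates AKT, differed by 0.24 (adjusted p = 0.195), and its relative PHLPP1 was detected on at most 5 arrays and was not tested. No gene of this group was called, against 11.6% of all genes, and the median difference was -0.09.

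TSC1 and TSC2 form the complex that keeps the small GTPase RHEB off, and RHEB in its active form switches on mTOR complex 1. TSC1 had values of 0.16, 0.29, 0.19 and 0.71 in sictrl and 0.88, 0.93, 0.96 and 1.05 in siUCA1. It rose by 0.62 (standard error 0.13, adjusted p = 0.0204), with the sictrl array of A3 closest to siUCA1. TSC2 was higher on every siUCA1 array, at 2.77 ± 0.05 (SD, n = 4) against 2.51 ± 0.07, a difference of 0.26 short of the threshold (adjusted p = 0.0869). RHEB had values of 1.55, 1.53, 1.51 and 1.49 in sictrl and 1.56, 0.77, 0.62 and 0.91 in siUCA1. Thus 3 siUCA1 arrays lay below sictrl and that of A1 did not, and the difference of -0.55 did not pass the test (adjusted p = 0.0930). Without the 2 arrays of strong surface trend, TSC1 and TSC2 were higher by 0.76 and 0.29 and RHEB was lower by -0.76, with adjusted p of 0.00270, 0.0340 and 0.00416.

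The mTOR kinase works in complex 1 with RPTOR and in complex 2, which phosphorylates AKT, with RICTOR. RICTOR had values of 1.34, 1.46, 1.35 and 1.31 in sictrl and 1.77, 1.75, 1.75 and 1.84 in siUCA1. The SD was 0.07 and 0.05, and RICTOR rose by 0.41 (standard error 0.08, adjusted p = 0.0169). RPTOR differed by 0.34 (adjusted p = 0.334), with sictrl values of 4.57, 4.54 and 4.51 in A1, M2 and A2 and of 3.65 in A3. Without that array it differed by 0.12. MTOR itself stood at 1.62 ± 0.19 (SD, n = 4) in sictrl and 1.53 ± 0.19 in siUCA1, a difference of -0.10 with an interval from -0.40 to 0.21. The shared subunit MLST8 differed by -0.19 and the inhibitor DEPTOR by -0.03, and neither passed the test. AKT1S1, which encodes the AKT substrate and mTORC1 inhibitor PRAS40, was higher on every siUCA1 array, by 0.28 (adjusted p = 0.0821). In the group 1 of 6 was called (16.7%, against 11.6% of all genes), and the median difference was 0.13.

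Substrates of mTOR complex 1 control translation, and AGC kinases such as SGK act beside AKT. None of the 8 measured genes was called, against 11.6% of all genes. Of the 8 differences, 5 were below 0, with a median of -0.05, while 54.2% of all genes were above 0. EIF4EBP1, the repressor of cap-dependent translation that mTORC1 inactivates, had values of 6.02, 6.04, 6.23 and 6.52 in sictrl and 6.01, 5.51, 5.62 and 5.79 in siUCA1. Every siUCA1 array lay below every sictrl array, if only just for A1, and the difference of -0.47 fell short of the threshold (adjusted p = 0.0819). SGK3, a kinase recruited by endosomal lipids, differed by 0.54 (adjusted p = 0.0804), with the sictrl array of A3 overlapping siUCA1. The S6 kinases RPS6KB1 and RPS6KB2 differed by -0.03 and 0.10, the ribosomal S6 kinase RPS6KA1 by -0.09 and the cap-binding protein gene EIF4E by -0.16. The insulin- and steroid-responsive kinase gene SGK1 differed by 0.18, and the siUCA1 array of A1, at 3.90, lay far above the other 3, which spanned 2.69 to 2.96.

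FOXO3 and FOXO1 are the factors that AKT keeps out of the nucleus. FOXO3 had values of 2.88, 2.97, 2.92 and 2.61 in sictrl and 3.51, 3.22, 3.23 and 3.36 in siUCA1. It rose by 0.48 (standard error 0.11, adjusted p = 0.0304), with no overlap. All 3 kept FOXO3 probes were higher in siUCA1, by 0.48, 0.34 and 0.37, and the dimmest did not pass the test over probes (adjusted p = 0.330). FOXO3 has a near-identical copy, FOXO3B, and which of them the probes can also bind was not tested. FOXO1 differed by 0.26 (adjusted p = 0.227), and without the 2 arrays of strong surface trend by 0.12. FOXO4 was nowhere well above background.

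Of the 6 FOXO-linked transcripts, 2 rose and 1 fell, against 5.72% higher and 5.85% lower of all genes, with a median difference of 0.21. TRIB2 encodes a pseudokinase of the Tribbles family, known to bind AKT and to restrain FOXO3 (gene ID 28951, chr2:12716936-12742734). It had values of 0.41, 0.28, 0.31 and 0.29 in sictrl and 1.07, 1.23, 1.13 and 0.91 in siUCA1, and rose by 0.76 (standard error 0.10, adjusted p = 0.00347). CITED2, a co-regulator of CBP and p300 that limits hypoxia signalling, had values of 3.54, 3.95, 3.91 and 4.02 in sictrl and 4.14, 4.53, 4.58 and 4.56 in siUCA1. In both conditions the array of A1 was the lowest, and CITED2 rose by 0.59 (standard error 0.14, adjusted p = 0.0329). Its second probe was higher by 0.73 (adjusted p = 0.0156).

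CCNG2, the gene of the growth-arrest cyclin G2 and a known FOXO target, went the other way. Its values were -1.03, -0.89, -1.27 and -0.28 in sictrl and -1.47, -1.80, -1.69 and -2.12 in siUCA1, and it fell by 0.90 (standard error 0.22, adjusted p = 0.0329). The signal was dim, and its second probe, above background on 1 of 4 siUCA1 arrays, differed by -0.18 (adjusted p = 0.743). CCNG2 differed by -0.54 as the mean of its probes (adjusted p = 0.149) and by -0.27 under normexp background correction (adjusted p = 0.366). TXNIP, which binds thioredoxin and lowers glucose uptake, differed by 0.29 (adjusted p = 0.330), and its sictrl array of A3, at 2.46, lay above every siUCA1 array. Without both arrays of strong surface trend TXNIP differed by 0.51 (adjusted p = 0.0186), and without that sictrl array alone by 0.47, also past the threshold. With the trend removed it differed by 0.29 (adjusted p = 0.286). KLF6 and TRIB1 differed by 0.12 and 0.06.

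**Figure D3:**
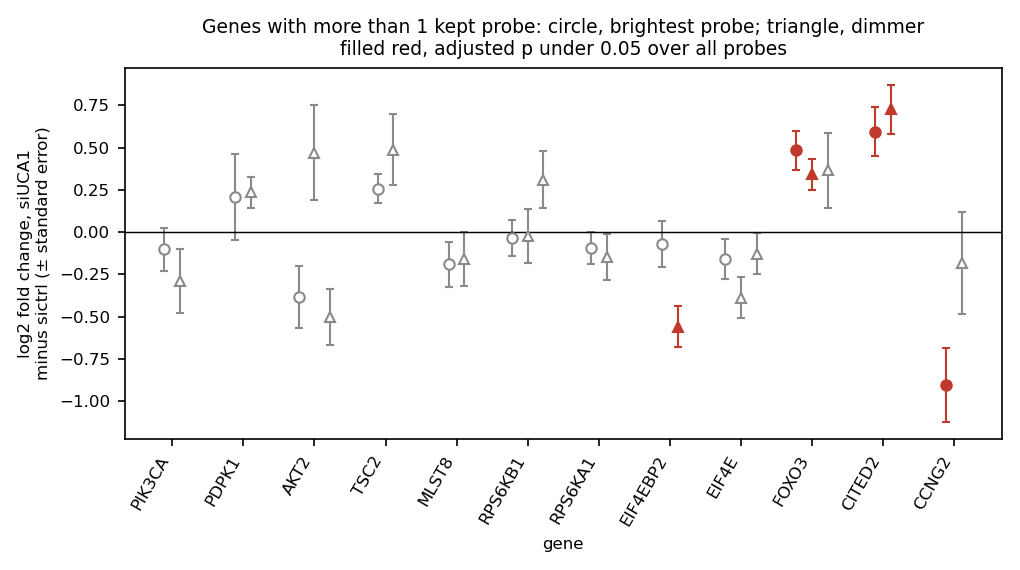
Log2 fold change (siUCA1 minus sictrl, vertical axis, with its standard error) of each kept probe of the 12 pathway genes with more than 1, circles for the brightest probe and triangles for dimmer ones. FOXO3 and CITED2 have all probes above 0, whereas AKT2 and RPS6KB1 have probes on both sides of it.

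Probes of a gene did not always move together. Of the 12 genes with more than 1 kept probe, AKT2 and RPS6KB1 had probes of both signs. The 3 AKT2 probes differed by -0.38, 0.47 and -0.50, and those of RPS6KB1 by -0.03, -0.02 and 0.31. None of these 6 passed the test. EIF4EBP2, a second translation repressor, differed by -0.07 on its brightest probe, while its dimmer probe was lower by -0.56 (adjusted p = 0.0223). Over the 58 kept probes of pathway genes, 14 were called, against 11.5% of all 19045 probes.

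Of the 11 calls, those of PIK3R1, PIK3R2, INSR and TRIB2 held whichever single array was left out. Pathway genes called numbered 5 without the sictrl array of A1, M2 or A2, 13 without that of A3, and 14, 6, 4 and 5 without the siUCA1 array of A1, M2, A2 and A3. CITED2, FOXO3, PIK3C2B and TSC1 were lost in each of the 6 fits that left 6 or fewer. The share called over all genes in these 8 fits was 7.05%, 5.41%, 4.9% and 13.8%, then 14.7%, 5.77%, 4.91% and 7.11%. Each slide row held 2 arrays per condition, and the differences within the first and the second row were for example 0.72 and 1.00 for PIK3R1 and 0.89 and 0.43 for IGFBP2. With the row as a block, CITED2 and PIK3C2B were no longer called, and 8.22% of all genes were called. Median scaling left INSR, PIK3R2 and CCNG2, 1 higher and 2 lower, with 3.46% of all genes called. It lowered the share of higher genes among all calls from 49.4% to 21.3%. Under normexp background correction INSR, PIK3R1, PIK3R2 and TRIB2 remained and AKT1 joined them, with 2.46% of all genes called. With no filter on dim probes no pathway gene was called (15 at an unadjusted p under 0.05). Of the 47753 genes and unmatched transcripts tested in that fit, 0.159% were called.

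**Figure D4:**
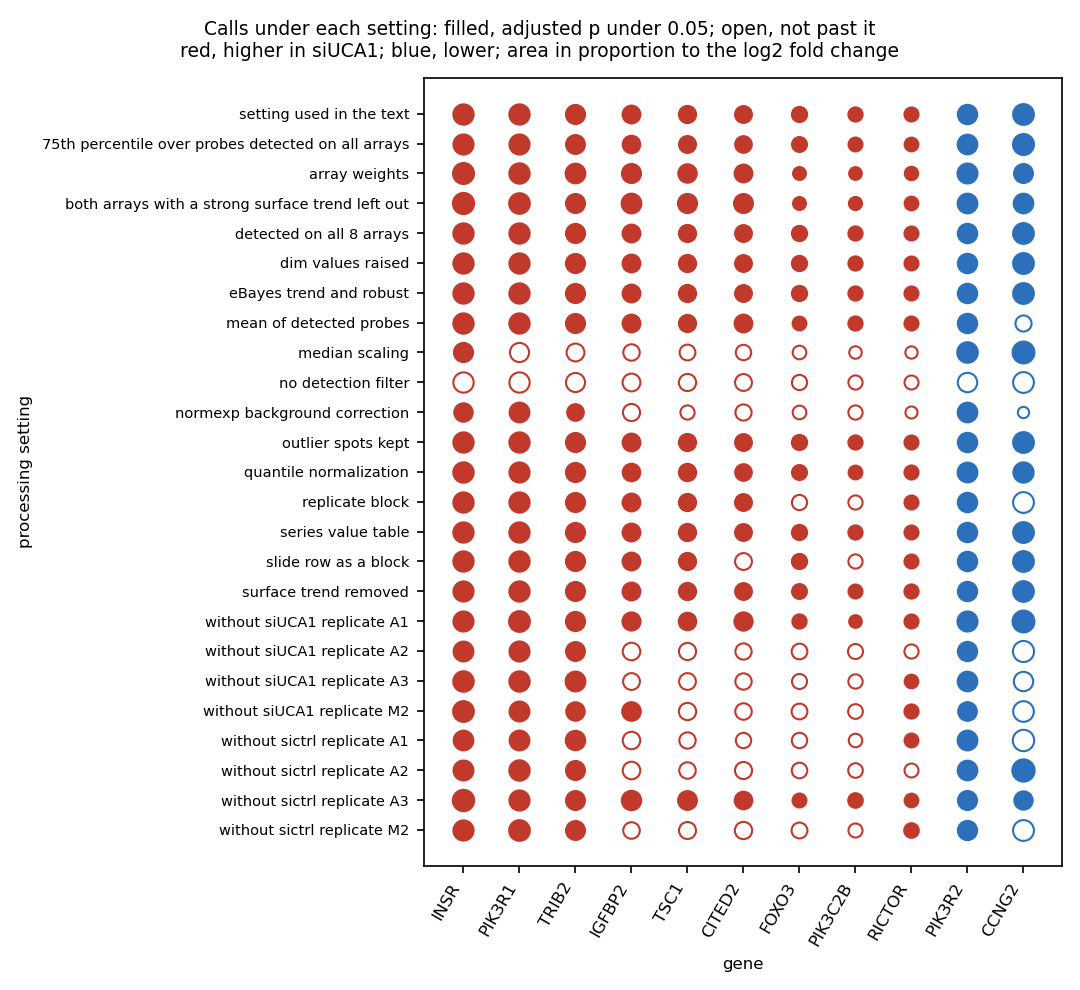
The 11 genes (horizontal axis) under each processing setting (vertical axis), with filled circles where the adjusted p was under 0.05, open circles where it was not, red for higher and blue for lower in siUCA1, and area in proportion to the log2 fold change. Colours do not change in any column, and INSR and PIK3R2 are open only where dim probes were not filtered.

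Neighbouring genes of the pathway were followed in 4 further lists of 104 genes, of which 77 were measured and 22 called (28.6%), 15 higher and 7 lower, against 11.6% of all genes, 5.72% higher and 5.85% lower. Their median difference was 0.09. The lists were chosen by role, with earlier results of these arrays known.

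Nutrient sensing at the lysosome tells mTOR complex 1 whether amino acids are present. Of 22 measured genes of this list, 6 rose and 1 fell (31.8% called, against 11.6% of all genes), with a median of 0.07. CASTOR1, an arginine sensor that inhibits mTORC1 through GATOR2, had values of 1.70, 1.91, 2.09 and 2.48 in sictrl and 3.40, 3.73, 3.88 and 3.73 in siUCA1. It rose by 1.64 (adjusted p = 0.00200), or 3.12-fold. FNIP2 and FNIP1, partners of folliculin in the control of RagC and RagD, rose by 1.45 and 0.51 (adjusted p = 0.00166 and 0.0367). The leucine sensor SESN2 and its relative SESN1, both also known as p53 targets, rose by 0.81 and 0.85 (adjusted p = 0.0403 and 0.00534). SESN2 was at 1.49 on the siUCA1 array of A1, within sictrl, and between 2.33 and 2.43 on the other 3. The GTPase gene RRAGD rose by 0.39 (adjusted p = 0.0453), and SEH1L, a subunit of GATOR2 and of the nuclear pore, fell by 0.86 (adjusted p = 0.0107).

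Other PI3K-AKT-mTOR components moved in both directions, 4 higher and 6 lower of 32 (5.72% and 5.85% of all genes), with a median of -0.01. SGK2, a relative of SGK1, fell by 1.19 (adjusted p = 0.00277). DDIT4, whose product REDD1 holds mTORC1 down under stress through TSC, fell by 1.05 (adjusted p = 0.0208). TBC1D7, the third subunit of the TSC complex, fell by 0.50 (adjusted p = 0.0137) while TSC1 rose. EEF2K, the kinase that slows elongation, and the receptor adaptors SHC1 and GRB10 fell by 0.46, 0.37 and 0.34 (adjusted p = 0.0147, 0.0266 and 0.0492). INPPL1, the lipid phosphatase SHIP2, rose by 0.79 and the AMPK subunit gene PRKAB2 by 0.71 (adjusted p = 0.00535 and 0.0130). The autophagy kinase genes PIK3C3 and ULK1 rose by 0.51 and 0.50 (adjusted p = 0.00778 and 0.0291).

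Insulin and IGF genes beyond the 49 gave 1 call of 7 (14.3%, near the 11.6% of all genes), IGF2BP1, which encodes an RNA-binding protein and rose by 1.06 (adjusted p = 0.00856). All 7 differences were above 0, with a median of 0.45, and IGF2 differed by 0.58 (adjusted p = 0.0811). Transcripts of IGF1 and insulin were not well above background on any array.

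Further FOXO targets gave 4 calls of 16, each higher (5.72% of all genes), with a median of 0.19. CDKN1A, the gene of the cyclin-dependent kinase inhibitor p21, rose by 1.26 and PDK4, which spares glucose from oxidation, by 1.02 (adjusted p = 0.00237 and 0.0224). BCL2L11, the gene of BIM, had values of 0.88, 0.80, 0.86 and 0.94 in sictrl and 1.53, 1.91, 1.90 and 1.80 in siUCA1, and rose by 0.91 (adjusted p = 0.00261). Of its 3 kept probes the second was higher by 0.72 and the dimmest differed by -0.36 (adjusted p = 0.0109 and 0.185 over all probes). BBC3, the gene of PUMA, had values of 3.93, 3.95, 4.05 and 4.39 in sictrl and 4.85, 4.82, 4.87 and 5.17 in siUCA1, and rose by 0.85 (adjusted p = 0.00726). CDKN1A and BBC3 are also known as p53 targets. The other 12 measured genes of this list did not pass the test. Their largest differences were 0.74 for GADD45A, -0.51 for ERBB3 and -0.45 for BNIP3. CDKN1B differed by 0.39, CAT by -0.33 and SOD2 by 0.13.

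**Figure D5:**
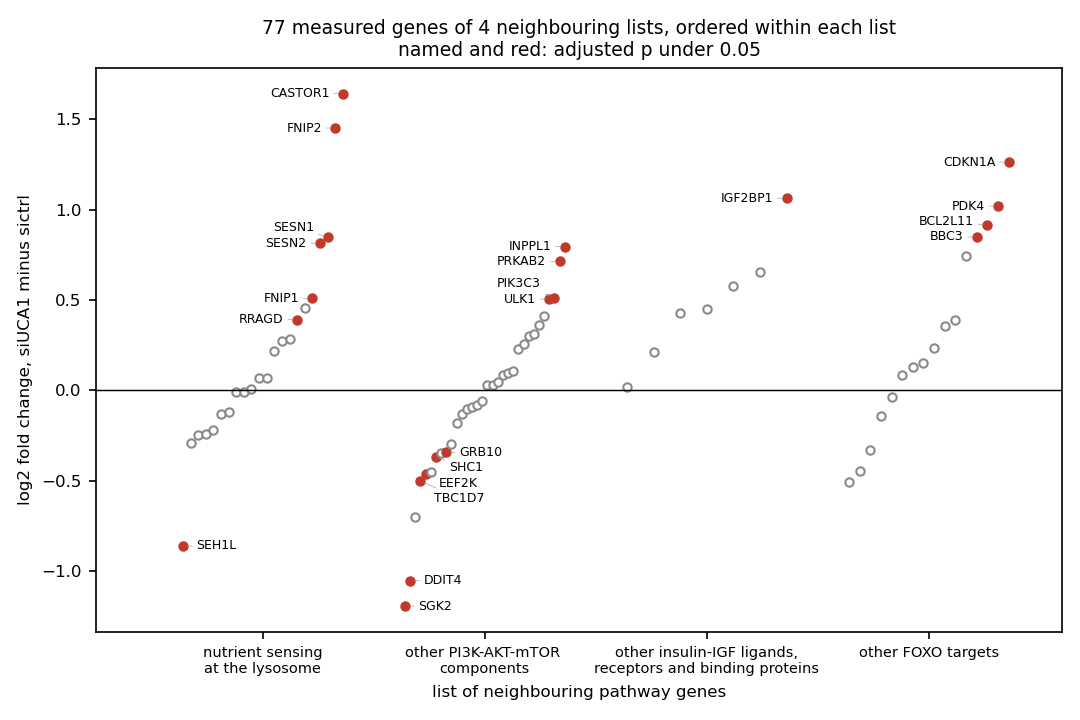
Log2 fold change (siUCA1 minus sictrl, vertical axis) of the 77 measured genes in 4 neighbouring lists, ordered within each list, with the 22 that passed the test named in red. CASTOR1 and FNIP2 are the highest points, and SGK2 and DDIT4 the lowest.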

How the data were processed

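Total RNA of 8 samples was read on one-colour Agilent 8x60k arrays, 4 per condition. The authors deposited Feature Extraction output (version 10.7.3.1 per the submitters' processing notes) with an intensity per spot, from which background and surface trend had been subtracted without normalization between arrays. The series' table of values held the same numbers. From the deposited intensity, log2 values minus the array's 75th percentile over non-control spots were computed. Control and outlier spots were left out, spots of 1 probe averaged, and a probe kept when well above background on all 4 arrays of a condition. A gene was its brightest kept probe, named through RefSeq (GRCh38.p14) or, where no symbol matched, by the array's own transcript name. Conditions were compared with limma 3.58.1 (lmFit, eBayes) in R 4.3.3 with Benjamini-Hochberg adjustment over all genes and a threshold of 0.05. Figures were drawn with matplotlib 3.10.9 in Python 3.11.15. The procedure was tested on simulated data.

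The pathway genes and all lists were chosen with earlier results of these data known. Any pathway gene could be named, as could genes of the other lists that passed the test, and others where the text says so. Alternatives were normexp (offset 50), quantile, median and detected-probe scaling, other filters and probe rules, limma's trend, robust and weight options, replicate and slide-row blocks, a further surface correction, the series table, and leaving out arrays. The small number of arrays and, near background, the signal itself set the precision. The paper calls the experiments independent, and p-values measure the spread between these arrays.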

Additional observations from a re-analysis of the deposited data

Results flagged for a closer look

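Within each condition, 1 array was far from the other 3 for 7 of 86 sets of 4 values, the 42 pathway genes and UCA1 in both conditions. Chance flags about 1 in 20 such sets. The gap of that array to its nearest neighbour, as a share of the whole range, was over Dixon's critical value for 4 values. In sictrl the array of A3 was low for RPTOR (3.65, others 4.51 to 4.57) and EIF4EBP2 (4.95, others 5.39 to 5.47), and high for KLF6 (5.19, others 4.88 to 4.93) and TXNIP (2.46, others 1.70 to 1.77). In siUCA1 the array of A1 was high for AKT1 (3.30, others 2.74 to 2.81) and low for CITED2 (4.14, others 4.53 to 4.58), and that of A3 was high for TRIB1 (3.76, others 3.47 to 3.52). Of these 7 values, 6 were on the 2 arrays with the strong surface trend. The part of that trend in them was not tested.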

How the results depend on the processing

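The number of pathway genes called was 11 and that of all genes 1788. Array weights gave 20 and 4599, leaving out both arrays of strong surface trend 21 and 3878, normexp 5 and 380, median scaling 3 and 535, and no detection filter 0 and 76. Leaving out 1 array gave between 4 (without siUCA1 A2) and 14 (without siUCA1 A1) pathway genes, and between 760 and 2290 genes in all. The other 12 alternatives gave 9 to 15 pathway genes and 1270 to 2496 genes in all. Correlations of the deviations of same-named arrays were between 0.0383 and 0.278, against -0.311 to 0.205 for other pairs. These values do not settle whether a name marks a shared experiment, and the labels do not say. The main test left the arrays unpaired. With the name as a replicate block, 9 pathway genes and 1727 genes in all were called, CCNG2, FOXO3 and PIK3C2B being lost and IGFBP3 gained. No called gene changed sign. Of the uncalled genes, 6 did. DEPTOR stood at 0.19 with array weights, 0.34 without both arrays and 0.0018 with normexp, and between -0.20 and 0.26 with 1 array left out. INPP4B was at 0.026 with normexp and between -0.20 and 0.048 with 1 left out. RPS6KB1 was at 0.085 as the mean of probes, 0.000315 with normexp and between -0.085 and 0.035 with 1 left out. SGK1 was at -0.14 without both arrays and between -0.073 and 0.33 with 1 left out. TRIB1 was at -0.033 under median scaling and between -0.014 and 0.20 with 1 left out, and PIK3CB between -0.025 and 0.26. The causes were not tested. With 4 arrays per condition, the spread between arrays limits precision, and the signal over background limits it for dim probes such as those of CCNG2.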
